A study of Sus scrofa with 6 samples.

Results

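The transcripts of 8 genes were followed in differentiating porcine satellite cells (PSCs): MEF2A, MEF2C and MEF2D of the myocyte enhancer factor 2 family, SRF, which encodes serum response factor, and HDAC4, HDAC5, HDAC7 and HDAC9, which encode the class IIa histone deacetylases. They were chosen by gene symbol, by a rule that did not use their values, but with earlier results of these data known. All 8 were among the 11804 rows of the deposited table, of 28266 in all, that could be paired with a symbol. Satellite cells are the stem cells of skeletal muscle, which fuse into multinucleated myotubes when they differentiate. The PSCs were primary cells from the limb muscles of newborn male Yorkshire pigs, and the libraries analysed here came from cells that received a negative control (NC) siRNA, 3 harvested at 24 h of differentiation (NC24h) and 3 at 36 h (NC36h), each group with replicates numbered 4, 5 and 6. The NC siRNA was read from the letter N in the library titles, with which the study marks its NC groups. The later time is 48 h in the sample labels and 36 h in the series title and the study's methods, and the name NC36h follows the latter. Whether the replicates came from separate animals or from separate dishes is not given in the sources used here, so the p-values measure only the spread between these libraries. The H19 siRNA libraries of the study were not analysed here.

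MEF2 proteins and SRF belong to the MADS-box family of transcription factors. MEF2 factors bind A/T-rich elements in the control regions of muscle genes and act together with the myogenic bHLH factors, while SRF binds the CArG box in genes of the actin cytoskeleton, in immediate early genes and in muscle genes, together with either a myocardin-related factor or a ternary complex factor. Class IIa HDACs bind MEF2 factors and repress their targets, until calcium-dependent and other kinases phosphorylate the HDAC, 14-3-3 proteins hold it and it leaves the nucleus.

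Expression was given as FPKM, fragments per kilobase of counted gene length scaled to sequencing depth, without a measure of depth of its own. The fragments recovered from these values numbered between 16250222 and 16774534 per library in NC24h and between 17873849 and 21723087 in NC36h. The myogenic identity of the cells was visible in every library, with DES, the muscle intermediate filament, between 1452 and 3367 FPKM. MYOD1, a myogenic bHLH factor, was measured in all 6, whereas PTPRC of leukocytes, KDR of endothelium and KRT8 of epithelium were listed at 0 throughout. Other markers of these lineages were present at low levels, CD14 and CD68 of leukocytes, PECAM1 of endothelium and, mainly in NC36h, CDH1 of epithelium. The leukocyte markers summed to at most 5.72 FPKM in any library, the endothelial markers to at most 1.67 and the epithelial markers to at most 4.43. A pair of libraries stood apart. NC24h replicates 4 and 6 were the least alike of all pairs within a group (Pearson's r of 0.972, across genes on the log2 scale), and replicate 6 had the lowest sum of MEF2 target genes and the lowest sum of myogenic markers, and NC36h replicate 6 had far higher immediate early transcripts than the other 5 libraries. For some results that rest on either library, the values without it are also given. With bulk RNA, a lower level per cell and fewer cells of a type cannot be told apart.

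Between NC24h and NC36h, MEF2C and SRF rose and HDAC7 fell, while MEF2A, MEF2D, HDAC4, HDAC5 and HDAC9 did not pass the test. The test was limma on log2(FPKM + 1) with Benjamini-Hochberg adjustment over the 14060 genes whose mean FPKM reached 1, a filter that all 8 members passed, and the threshold was an adjusted p of 0.05. On that test 3 of the 8 members (37.5%) were called, against 50.9% of all genes tested, of which 16.5% were higher and 34.4% lower in NC36h. In 3 of the 8 members, MEF2C, SRF and HDAC5, no NC24h library reached into the range of NC36h, all with the higher values in NC36h, against 63.6% of all genes tested, 21.0% with higher and 42.6% with lower values in NC36h. The median gene changed by -0.16 on the log2 scale on the deposited values, and by -0.01 with median-ratio scaling, which divides a library by the median of its gene-wise ratios to the mean library. With that scaling MEF2C, SRF and HDAC5 were called, all higher, against 46.3% of all genes, 23.9% higher and 22.3% lower. Relative to the median of all genes, the change was 1.53 for MEF2C, 0.42 for SRF, 0.29 for HDAC5, 0.25 for MEF2D, 0.06 for MEF2A, 0.03 for HDAC4, -0.04 for HDAC9 and -0.22 for HDAC7.

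**Figure D1:**
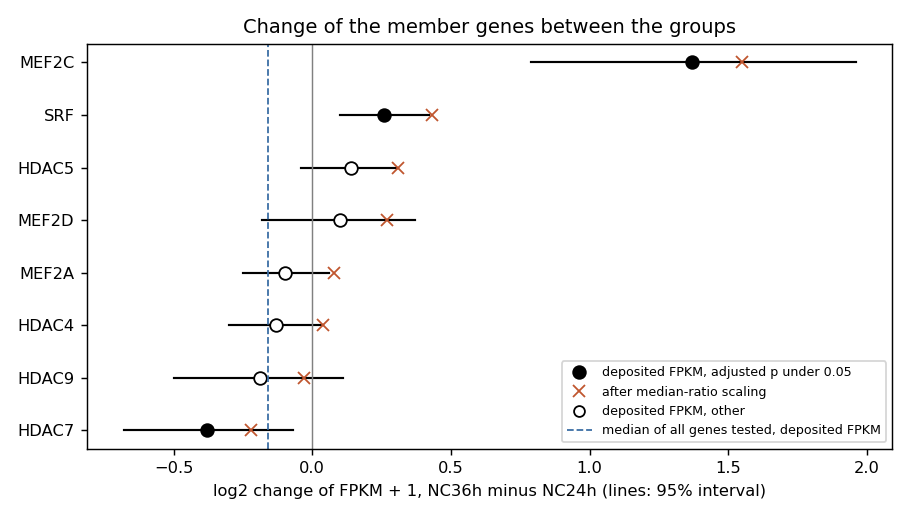
Log2 change of FPKM + 1 from NC24h to NC36h for the 8 members (horizontal axis), with the 95% interval of the limma fit as a line, filled points for genes past the threshold and crosses for the change after median-ratio scaling. MEF2C at 1.37 lies apart from the other members, whose changes run from -0.38 to 0.26, and the dashed line marks the median of all genes tested at -0.16.

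MEF2C (ENSSSCG00000014149), a protein-coding gene on chromosome 2 of Sscrofa11.1 from 96122407 to 96296927, was the most abundant member and the one with the largest change. Its FPKM was 433, 378 and 226 in replicates 4, 5 and 6 of NC24h and 977, 898 and 738 in those of NC36h. All NC36h libraries lay above all NC24h libraries, and within each group replicate 6 was the lowest. The mean rose from 346 ± 108 (SD, n = 3) to 871 ± 122 (SD, n = 3), a 2.52-fold difference or 1.37 on the log2 scale (SE 0.25, 95% interval 0.79 to 1.96, limma adjusted p = 0.00464). This change ranked at the 98.1 percentile of all genes tested, and by its mean FPKM MEF2C was number 128 among the 14060. The values rested on between 6207 and 33973 fragments per library, so that counting error was at most 1.27%, far below the spread of 31.1% between the NC24h libraries. Without NC24h replicate 6 the log2 change was 1.09 (limma adjusted p = 0.00138), and over all 13 alternatives the adjusted p ran from 0.00138 to 0.0227.

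MEF2A (ENSSSCG00000028771), on chromosome 1 from 138398270 to 138508639, stayed within a narrow band. It had 130.2, 127 and 118 FPKM in replicates 4, 5 and 6 of NC24h and 121, 119 and 111 in those of NC36h. The groups overlapped, with means of 125 ± 6.16 and 117 ± 5.3 (SD, n = 3 each), and the log2 change of -0.10 (95% interval -0.25 to 0.06) did not pass the test (limma adjusted p = 0.251). Its sign turned to 0.08 after median-ratio scaling.

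MEF2D (ENSSSCG00000006482), on chromosome 4 from 93581563 to 93616980, had 72.2, 70.8 and 53.9 FPKM in NC24h and 72.4, 69.0 and 67.4 in NC36h. NC24h replicate 6 was the one low value, and the other 5 libraries lay within 67.4 to 72.4. The log2 change was 0.10 (95% interval -0.18 to 0.37, limma adjusted p = 0.521), and -0.04 without NC24h replicate 6. The upper ends of the intervals, 0.37 for MEF2D and 0.06 for MEF2A on the deposited values, lay below the lower end of 0.79 for MEF2C, and with median-ratio scaling the change of MEF2D was 0.27 (adjusted p = 0.134). MEF2B, the remaining gene of the family, lay between 0.302 and 0.873 FPKM and was not tested.

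In every NC36h library MEF2C took a larger share of the MEF2 transcripts than in any NC24h library. MEF2C accounted for 63.5% ± 6.0 of the summed FPKM of MEF2A, MEF2C and MEF2D in NC24h and for 82.2% ± 1.5 in NC36h (SD, n = 3 each). Its share was 68.2%, 65.7% and 56.7% in replicates 4, 5 and 6 of NC24h and 83.5%, 82.7% and 80.6% in those of NC36h, with no overlap. The share of MEF2A was 20.5% to 29.7% in NC24h and 10.3% to 12.1% in NC36h, and that of MEF2D 12.4% ± 1.1 and 6.6% ± 0.6. The sum of the 3 genes went from 536 ± 124 to 1058 ± 130 FPKM, and nearly all of the difference was MEF2C. No test was made on these sums and shares, which are built from the members. The counted length was 1671 bases for MEF2C, 5028 for MEF2A and 5690 for MEF2D, and the size of a share holds for these lengths only.

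**Figure D2:**
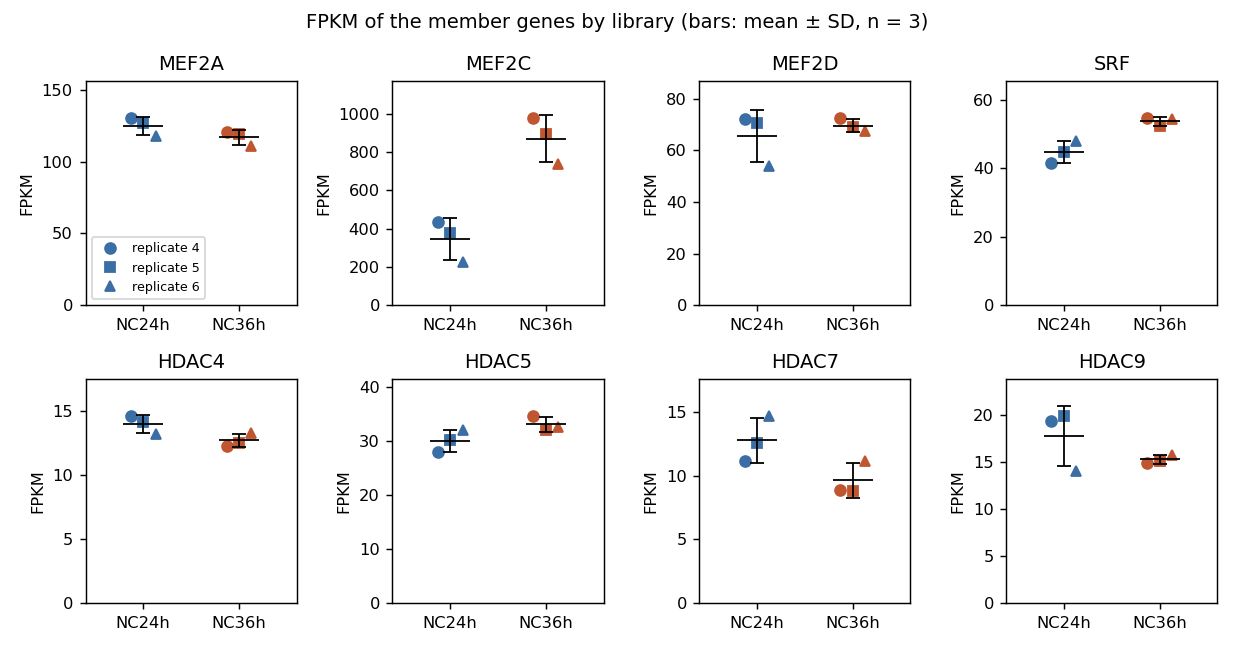
FPKM of each member in each library (vertical axes from 0, one panel per gene), with the symbol giving the replicate number and black bars the mean ± SD of 3 libraries. The NC36h libraries of MEF2C, SRF and HDAC5 all lie above the NC24h libraries, and replicate 6 is the lowest NC24h value in MEF2A, MEF2C, MEF2D, HDAC4 and HDAC9.

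SRF (ENSSSCG00000001661), on chromosome 7 from 38213300 to 38223686, showed a small rise on a tight spread. Its FPKM was 41.5, 44.8 and 47.8 in replicates 4, 5 and 6 of NC24h and 54.5, 52.2 and 54.3 in those of NC36h, from 2699 to 4398 fragments per library. The highest NC24h library stayed below the lowest NC36h library, and NC24h replicate 6, the low library for MEF2C, was here the highest of its group. The means were 44.7 ± 3.16 and 53.7 ± 1.3 (SD, n = 3 each), a 1.2-fold difference or 0.26 on the log2 scale (SE 0.07, 95% interval 0.10 to 0.42, limma adjusted p = 0.0191). The call was narrow. It was lost without NC24h replicate 5 (adjusted p = 0.0597) and without NC36h replicate 4, 5 or 6 (0.0581, 0.0528 and 0.0539), and the adjusted p over all alternatives ran from 0.00252 to 0.0597, with the direction kept in each of the 13.

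Among the class IIa HDACs, which repress MEF2 targets, HDAC5 had the highest FPKM. HDAC5 (ENSSSCG00000017366), on chromosome 12 from 19077910 to 19119463, had 27.9, 30.2 and 32 FPKM in NC24h and 34.6, 32.1 and 32.5 in NC36h. The groups touched without overlapping, at 32 against 32.1, and the log2 change of 0.14 (95% interval -0.04 to 0.31) did not pass the test (limma adjusted p = 0.154). After median-ratio scaling it was 0.31 with an adjusted p of 0.00937, so the call for HDAC5 depended on how the libraries were scaled.

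HDAC4 (ENSSSCG00000024777), on chromosome 15 from 138378237 to 138657266, had 14.6, 14.1 and 13.2 FPKM in NC24h and 12.3, 12.5 and 13.3 in NC36h. The values converged in the replicates numbered 6, where the groups overlapped. The log2 change was -0.13 (95% interval -0.30 to 0.04, limma adjusted p = 0.173), and it turned to 0.04 after median-ratio scaling and 0.02 after quantile normalization.

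HDAC7 (ENSSSCG00000027859), on chromosome 5 from 78150554 to 78186051, was the member that fell. It had 11.2, 12.6 and 14.7 FPKM in NC24h and 8.91, 8.8 and 11.2 in NC36h, so that NC36h replicate 6 reached the level of NC24h replicate 4. The means were 12.8 ± 1.76 and 9.64 ± 1.37 (SD, n = 3 each), or -0.38 on the log2 scale (SE 0.13, 95% interval -0.68 to -0.07, limma adjusted p = 0.0461). The call just passed and held in 5 of the 13 alternatives, where the adjusted p ran from 0.0149 to 0.182. It was lost without NC24h replicate 5 or 6 (adjusted p = 0.102 and 0.0919) and without NC36h replicate 4 or 5 (0.131 and 0.145), and with median-ratio scaling the change was -0.22 (adjusted p = 0.182).

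HDAC9 (ENSSSCG00000015368), on chromosome 9 from 87164400 to 88192803, had 19.4, 19.9 and 14.1 FPKM in NC24h and 14.9, 15.1 and 15.8 in NC36h. NC24h replicate 6 lay below all NC36h libraries and the other NC24h libraries above them. The log2 change was -0.19 (95% interval -0.50 to 0.11, limma adjusted p = 0.245) with all libraries, and -0.34 (adjusted p = 0.00527) without NC24h replicate 6, so that 1 library decided whether HDAC9 was called. Within NC24h, that library was 0.719 times the mean of replicates 4 and 5 for HDAC9, 0.754 times for MEF2D and 0.556 times for MEF2C. It was 0.92 times for MEF2A and 0.918 times for HDAC4, but 1.23 times for HDAC7, 1.11 times for SRF and 1.1 times for HDAC5.

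HDAC7 and HDAC9 were measured on far fewer fragments than the other members, 155 to 202 and 235 to 333 per library, against at least 1138 for HDAC5 and 1676 for HDAC4. The counted lengths implied by the FPKM values were 836 bases for HDAC7 and 1010 bases for HDAC9, against 2416 for HDAC5, 7725 for HDAC4, 1671 for MEF2C, 5028 for MEF2A, 5690 for MEF2D and 3850 for SRF. Full class IIa HDAC transcripts are several kilobases long, so the HDAC7 and HDAC9 values cover only a short stretch of each gene. Whether the counted lengths of the other members, HDAC5 and MEF2C among them, span their full transcripts was not tested. The counting error alone was 8.03% for the lowest HDAC7 library and 6.52% for the lowest HDAC9 library, beside a spread between libraries of 13.7% and 14.2% for HDAC7 in NC24h and NC36h and of 18.0% and 3.14% for HDAC9.

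The summed FPKM of the 4 class IIa HDACs was 74.6 ± 2.02 in NC24h and 70.7 ± 2.18 in NC36h (SD, n = 3 each). HDAC5 made up 40.2% ± 2.7 of it in NC24h and 46.8% ± 2.2 in NC36h, HDAC7 17.2% ± 2.4 and 13.6% ± 1.6, HDAC9 23.9% ± 4.1 and 21.6% ± 0.5, and HDAC4 18.7% ± 1.1 and 18.0% ± 0.5. Set against that sum, the MEF2 sum was 8.71, 7.49 and 5.38 times as high in replicates 4, 5 and 6 of NC24h and 16.5, 15.9 and 12.6 times in those of NC36h. Without MEF2C the ratio was 2.56 ± 0.223 and 2.64 ± 0.167, so the difference in the ratio lay in MEF2C. These are ratios of transcript levels and carry no information on the amount or place of the proteins. HDAC7 and HDAC9 entered the sum through short counted stretches, so the size of the shares and ratios holds for these counted lengths only.

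**Figure D3:**
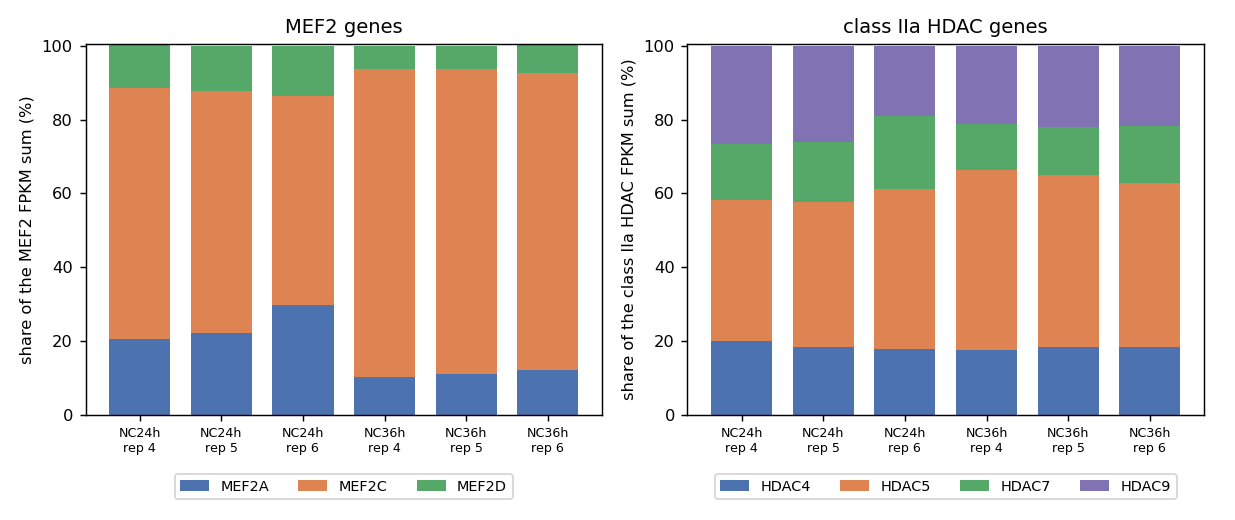
Share of each gene in the summed FPKM of its family (vertical axes, percent) for every library, MEF2 genes on the left and class IIa HDAC genes on the right. MEF2C takes 56.7% to 68.2% of the MEF2 sum in NC24h and 80.6% to 83.5% in NC36h, while HDAC5 takes the largest share of the HDAC sum in each library.

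FPKM is scaled to the counted length, so levels of different genes compare only as far as that length represents each gene. The counted lengths ran from 836 bases for HDAC7 to 7725 for HDAC4, and HDAC7 and HDAC9 were counted on a short stretch. The order below is that of the listed values. The order was the same in both groups: MEF2C, MEF2A, MEF2D, SRF, HDAC5, HDAC9, HDAC4 and HDAC7. In NC36h no neighbours in that order overlapped. In NC24h the ranges of HDAC9 (14.1 to 19.9), HDAC4 (13.2 to 14.6) and HDAC7 (11.2 to 14.7) overlapped, and these 3 could not be ranked.

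The genes with a symbol whose profile over the 6 libraries was most like that of a member were found by the root mean square difference of log2(FPKM + 1), each gene centred on its own mean, among 7880 genes. For MEF2C they were SRL, which encodes sarcalumenin of the sarcoplasmic reticulum, at 0.0571, and CYTIP at 0.061. SRL had a mean FPKM of 259.5 in NC24h and 699.6 in NC36h. For SRF they were LTO1 (0.03) and PRDM4 (0.0381), and for HDAC7 VANGL1 (0.0381) and ACAT2 (0.039). For MEF2A they were DNAJB12 (0.0187) and ZBTB37 (0.0197), for MEF2D PTPN1 (0.0188) and KPNA1 (0.0245), for HDAC4 NFE2L2 (0.0241) and SNAP47 (0.0242), for HDAC5 CIAO1 (0.0202) and THNSL2 (0.0246), and for HDAC9 MKRN2 (0.0293) and GTF3C4 (0.0314). Over 6 libraries in 2 groups, such neighbours are a description of shape only.

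Most of the tested targets of MEF2 rose. Of a list of 19 textbook targets 12 had a row and 11 were tested, and 9 of these were higher in NC36h on limma, with the other 2, MYOM1 and XIRP2, not past the threshold. Of all genes tested 16.5% were higher. MYOZ1, which encodes a sarcomeric Z-disc protein and was named after its values were seen, reached the FPKM minimum only through NC36h, and without it 8 of 10 were higher with a median log2 change of 1.07, against -0.16 for all genes tested. HRC, the histidine-rich calcium-binding protein of the sarcoplasmic reticulum, had 50.9, 44.1 and 24.0 FPKM in replicates 4, 5 and 6 of NC24h and 186, 175 and 142 in those of NC36h. HRC thus rose without overlap, with a log2 change of 2.11 (limma adjusted p = 0.00172), and as for MEF2C replicate 6 was the lowest in each group. PGAM2, the muscle phosphoglycerate mutase, rose from 444, 354 and 177 to 1099.8, 1145 and 949 FPKM (log2 change 1.80, limma adjusted p = 0.00447). DES rose from a mean of 1693 ± 211 to 3182 ± 268 FPKM (SD, n = 3 each), a log2 change of 0.91 (limma adjusted p = 0.00202). SMYD1, a muscle methyltransferase needed for sarcomere assembly, rose from 100.1 ± 28.8 to 233 ± 61.4 FPKM (log2 change 1.22, limma adjusted p = 0.0101). SLC2A4, the insulin-responsive glucose transporter, was listed at 0 in NC24h and at 0.0552 to 0.101 FPKM in NC36h and was not tested. The summed FPKM of the 12 targets was 3408, 3138 and 2278 in replicates 4, 5 and 6 of NC24h and 6349, 6160 and 5226 in those of NC36h. Without NC36h replicate 4 or without NC36h replicate 5 the number of targets called fell to 5, and without NC24h replicate 6 it was 9 with a median change of 0.97. MYOZ1 was among the 11 tested in these counts.

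Of SRF's partners 3 were tested, and 1 was higher, 1 was lower and 1 did not pass. Among all genes tested 16.5% were higher and 34.4% lower. MRTFA, an actin-regulated coactivator of SRF, had 14.7, 16.5 and 16.6 FPKM in NC24h and 31.9, 31.9 and 31.1 in NC36h. The MRTFA libraries formed 2 tight groups, 1.99-fold apart, or 0.95 on the log2 scale (SE 0.07, limma adjusted p = 0.000662). ELK3, a ternary complex factor of SRF, had 10.5, 11.5 and 18.3 FPKM in NC24h and 5.88, 5.97 and 5.92 in NC36h, a fall of 1.02 on the log2 scale (limma adjusted p = 0.00517) that was -0.80 without NC24h replicate 6. ELK4 went from 5.03 ± 0.498 to 4.12 ± 0.906 FPKM (SD, n = 3 each) and did not pass (limma adjusted p = 0.208). Both the rise of MRTFA and the fall of ELK3 held after median-ratio scaling, at 1.12 and -0.87. MRTFB, MYOCD and ELK1 were not analysed here.

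SRF targets were read in 3 lists. Of the 3 striated muscle targets tested, ACTA1 and ACTC1, the skeletal and cardiac α-actins, were higher in NC36h. Among all genes tested 16.5% were higher, or 23.9% with median-ratio scaling. ACTA1 had 1853, 1425 and 467 FPKM in replicates 4, 5 and 6 of NC24h and 5885, 5819 and 5012 in those of NC36h, a log2 change of 2.37 (limma adjusted p = 0.00711), and 1.77 without NC24h replicate 6. ACTC1 rose by 0.44 (limma adjusted p = 0.0408) and LMOD2, an actin filament nucleator, had a log2 change of 1.09 and did not pass (limma adjusted p = 0.0645). The call of ACTC1 was lost without the FPKM filter and with quantile normalization (adjusted p = 0.325 and 0.266). ACTA1 alone was called without NC24h replicate 5 or any 1 of the NC36h libraries, and all 3 were called without NC24h replicate 4, without NC24h replicate 6 and with median-ratio scaling.

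Of the 13 actin cytoskeleton targets of SRF tested, 2 were higher, 5 were lower and 6 did not pass, with a median log2 change of -0.17 beside -0.16 for all genes. These numbers stand against 16.5% higher and 34.4% lower among all genes tested, and shares of that size are near what all genes gave. The rises were VCL, the adhesion protein vinculin, from 210.0 ± 0.95 to 270.1 ± 12.8 FPKM (SD, n = 3 each, log2 change 0.36, limma adjusted p = 0.00383), and TPM1, a tropomyosin with muscle isoforms, from 1898 ± 252 to 3115 ± 189.8 FPKM (0.72, limma adjusted p = 0.00392). The falls included the non-muscle genes TPM4 and ACTB. TPM4, a cytoskeletal tropomyosin, fell from 366 ± 182 to 104 ± 9.08 FPKM, with NC24h replicate 6 at 573, a log2 change of -1.69 (limma adjusted p = 0.00514) and -1.31 without NC24h replicate 6. ACTB, the cytoplasmic β-actin, fell from 2119, 2439 and 3441 to 1106, 1312 and 1557 FPKM, by 0.99 on the log2 scale (limma adjusted p = 0.00795). The remaining falls, named after their values were seen, were MYH9, a non-muscle myosin (-1.21), ACTG1, the cytoplasmic γ-actin (-0.72), and TAGLN (-0.98), whose adjusted p was 0.0508 with median-ratio scaling. In all 5 genes that fell, NC24h replicate 6 was the highest library. The number of falls was 3 without NC36h replicate 4 or without NC36h replicate 5 and 7 without NC36h replicate 6.

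**Figure D4:**
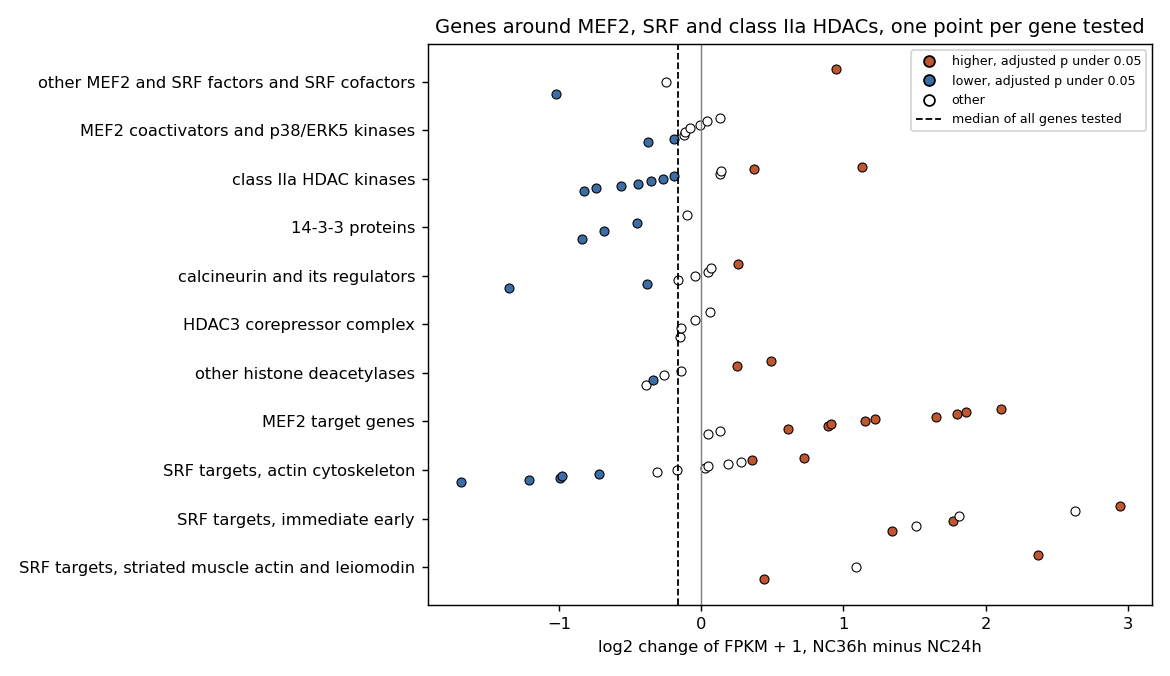
Log2 change of FPKM + 1 from NC24h to NC36h (horizontal axis) for each tested gene of the 11 lists around MEF2, SRF and the class IIa HDACs (rows), coloured where the limma adjusted p was under 0.05. MEF2 targets lie to the right of the dashed median of all genes at -0.16, actin cytoskeleton targets of SRF lie on both sides, and the 14-3-3 genes lie from -0.84 to -0.10.

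Immediate early genes, the SRF targets that respond within minutes to serum and stress, had their highest values in NC36h replicate 6, and EGR1 and JUNB were called higher in NC36h. EGR1, an immediate early transcription factor, had 16.6, 14.6 and 13.9 FPKM in NC24h and 47.8, 64.6 and 569 in NC36h replicates 4, 5 and 6. All NC36h libraries lay above the NC24h libraries, and replicate 6 was 10.1 times the mean of replicates 4 and 5. Of 6 genes tested, EGR2 and EGR3 exceeded the FPKM minimum only through NC36h, so that their tests carry no weight. Of the other 4, EGR1 and JUNB were called (log2 changes 2.94 and 1.77, limma adjusted p = 0.0278 and 0.0477), beside 16.5% of all genes tested that were higher, while IER2 had a log2 change of 1.81 and did not pass (0.0638), and FOS, named here after its values were seen, did not pass either (adjusted p = 0.110). EGR3 was at 0 to 0.282 FPKM in NC24h and 0.824 to 4.49 in NC36h, and EGR2, also named afterwards, at 0.253 to 0.368 and 0.873 to 12.9. Without NC36h replicate 6, 4 genes remained to be tested and all 4 were called, with changes of 1.83 for EGR1, 1.09 for FOS, 0.99 for JUNB and 0.93 for IER2 and limma adjusted p-values of 0.00287, 0.0410, 0.00559 and 0.00567. The following counts over all 6 genes include EGR2 and EGR3 and are given only as a description. With all libraries 3 were called. The number called was 1 without NC24h replicate 4 or NC36h replicate 5, and 0 without NC24h replicate 5 or NC24h replicate 6, where 2 genes had an unadjusted limma p under 0.05, and voom on the recovered fragments called 2 with all libraries.

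Beside this, SRF itself did not stand out in NC36h replicate 6, at 54.3 FPKM against 54.5 and 52.2, or 1.02 times the mean of the other NC36h libraries. FOS in that library was 27.3 times, IER2 6.68 times and JUNB 5.33 times the mean of replicates 4 and 5. CCN1 and CCN2, secreted matrix proteins on the actin cytoskeleton list that were named after their values were seen, were also high there, with 381 FPKM against 48.8 and 64.8 for CCN1 and 474 against 93.7 and 142 for CCN2. In replicates 4 and 5 of NC36h, CCN1 and CCN2 were 0.644 and 0.649 times the NC24h mean, whereas EGR1 was 3.75 times and FOS 2.35 times. With all libraries the log2 changes of CCN1 and CCN2 were 0.28 and 0.03 (limma adjusted p = 0.765 and 0.968). Without NC36h replicate 6 they were -0.64 and -0.65 (limma adjusted p = 0.0215 and 0.0379).

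**Figure D5:**
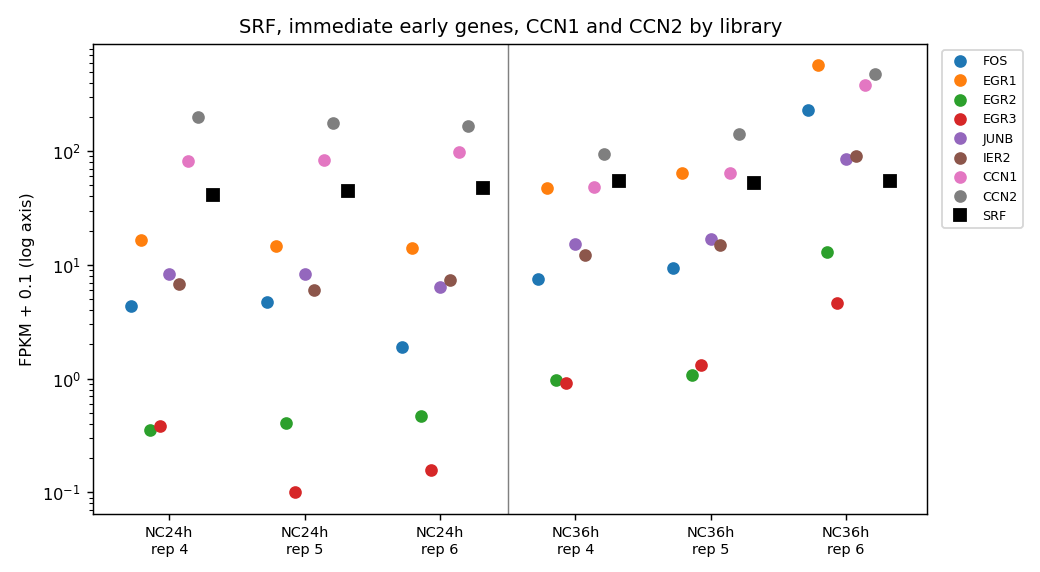
FPKM + 0.1 on a log axis for SRF (squares), 6 immediate early genes and CCN1 and CCN2 in every library (horizontal axis). In NC36h replicate 6 the immediate early genes, CCN1 and CCN2 lie far above the other libraries, for example EGR1 at 569 FPKM, while SRF lies between 41.5 and 54.5 in all 6.

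Among genes that act on class IIa HDACs, CAMK2A rose and CAMK1 fell. Of 11 kinases tested that phosphorylate these HDACs or activate those that do, 2 were higher, 7 were lower and 2 did not pass, beside 16.5% higher and 34.4% lower among all genes tested. With median-ratio scaling 2 were higher and 3 lower, near the 23.9% and 22.3% of all genes. CAMK2A, a calcium/calmodulin-dependent kinase, had 48.1, 44.6 and 27.5 FPKM in NC24h and 92.3, 91.1 and 77.4 in NC36h, a log2 change of 1.13 (limma adjusted p = 0.00492). CAMK1, of a related kinase family, went the other way, from 17.8, 19.8 and 17.7 to 9.92, 9.55 and 10.5 FPKM, a fall of 0.82 on the log2 scale (limma adjusted p = 0.000838). PRKD3, a protein kinase D, fell from 21.1 ± 2.02 to 14 ± 0.584 FPKM (SD, n = 3 each, log2 change -0.56, limma adjusted p = 0.00271). STK11, which activates AMPK and salt-inducible kinases, fell by 0.35 on the log2 scale (limma adjusted p = 0.00378), but its change after median-ratio scaling was -0.18 with an adjusted p of 0.0608. CAMK1D and CAMK1G were at 0 in most libraries and not tested.

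Of the 14-3-3 genes, whose products hold phosphorylated class IIa HDACs in the cytoplasm, 4 were tested and 3 fell, beside 34.4% of all genes tested that were lower, or 22.3% with median-ratio scaling. YWHAZ fell from 295 ± 42.1 to 163 ± 7.51 FPKM, YWHAQ from 207 ± 29.2 to 128 ± 6.6 and YWHAB from 123 ± 12.6 to 89.9 ± 1.5 (SD, n = 3 each), with log2 changes of -0.84, -0.68 and -0.45 and limma adjusted p-values of 0.00166, 0.00308 and 0.00500. The 3 falls held after median-ratio scaling, at -0.67, -0.50 and -0.27. YWHAH did not pass (log2 change -0.10, limma adjusted p = 0.328) but was lower without NC24h replicate 6 (-0.17, adjusted p = 0.0355). Calcineurin is the calcium-dependent phosphatase that promotes MEF2 and NFAT activity. Its catalytic subunit gene PPP3CB fell from 49.4 ± 0.174 to 37.8 ± 0.267 FPKM (log2 change -0.38, limma adjusted p = 0.00196), the other catalytic gene tested, PPP3CA, named after its values were seen, had 22.4 ± 1.3 and 23.6 ± 1.71 and was called with median-ratio scaling (0.24, adjusted p = 0.0353), and RCAN2, a calcineurin regulator, fell from 41.5 ± 8.95 to 15.6 ± 2.98 (-1.35, limma adjusted p = 0.00193). CABIN1, which binds calcineurin and represses MEF2, rose from 17.8 ± 1.2 to 21.4 ± 0.836 FPKM (0.26, limma adjusted p = 0.0245), a call lost without NC24h replicate 4 or 5 and without NC36h replicate 5 or 6. NFATC2 and NFATC4 lay under the FPKM minimum. Of the 7 calcineurin genes and regulators tested, 2 were lower and 1 higher, near the 34.4% and 16.5% of all genes tested.

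Class IIa HDACs act through a corepressor complex that contains HDAC3 and NCOR1. HDAC3 had 25.5 ± 1.14 and 23.0 ± 0.779 FPKM (SD, n = 3 each, log2 change -0.14, limma adjusted p = 0.110), and NCOR1 had 24.5 ± 0.302 and 25.6 ± 0.282 (log2 change 0.06, limma adjusted p = 0.367), called with median-ratio scaling (0.23, adjusted p = 0.0181). The other 2 genes of the complex that were tested, TBL1XR1 and GPS2, did not pass on the deposited values either. Among all genes tested 50.9% were called, or 46.3% with median-ratio scaling, and 4 genes are few to set beside these shares. The list of other histone deacetylases had 6 genes tested, HDAC3 again among them. Of these 1 was lower and 2 were higher, beside 34.4% lower and 16.5% higher among all genes tested. HDAC2 of class I fell from 55.8 ± 1.09 to 44.0 ± 1.5 FPKM (-0.34, limma adjusted p = 0.00377) and the class IIb genes HDAC10 and HDAC6 rose by 0.49 and 0.25 (limma adjusted p = 0.0361 and 0.0474). The rises of HDAC10 and HDAC6 were both lost without NC24h replicate 4, NC24h replicate 5, NC36h replicate 5 or NC36h replicate 6, and 1 of them without NC36h replicate 4. After median-ratio scaling the change of HDAC2 was -0.16 with an adjusted p of 0.0564. The row of HDAC1 lay between 0 and 0.104 FPKM although most cells use HDAC1, so that it can only be said to be listed there. Among 8 coactivators and upstream kinases of MEF2, EP300, a histone acetyltransferase, and NCOA2, a steroid receptor coactivator, were lower (log2 changes -0.19 and -0.37, limma adjusted p = 0.0281 and 0.0316) and 6 did not pass, while 34.4% of all genes tested were lower. Neither was called after median-ratio scaling, at -0.02 and -0.23, nor without NC24h replicate 5 or any 1 of the NC36h libraries, and 1 of them was called without NC24h replicate 4. MAPK14, the p38α kinase that phosphorylates MEF2 factors, named after its values were seen, had a log2 change of 0.04 (limma adjusted p = 0.604) and of 0.21 with median-ratio scaling (adjusted p = 0.0318), and MAP2K6 lay under the minimum.

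Myogenic markers and markers of other cell types were read in the same libraries. Of 8 myogenic markers tested 6 rose, beside 16.5% of all genes tested that were higher, and 4 were called without NC36h replicate 6. MYOD1 and MYF5 had log2 changes of -0.29 and -0.48 and did not pass (limma adjusted p = 0.133 and 0.106). The summed FPKM of the 8 markers was 14369, 13858 and 11003 in replicates 4, 5 and 6 of NC24h and 19743, 20502 and 18954 in those of NC36h. Of 10 fibroblast markers 7 had a row, and their summed FPKM was 929 to 1001 in NC24h and 827 to 1032 in NC36h. Among the 5 tested, DCN, LUM and COL1A2 fell and PDGFRB and COL3A1 rose, beside 34.4% lower and 16.5% higher among all genes tested. PDGFRA, which marks muscle-resident fibroblasts, lay at 0.0188 to 0.680 FPKM. MYH11, the defining myosin of smooth muscle, was at most 0.0254 FPKM. Other smooth muscle markers were present, ACTA2 at 853 to 1091 FPKM, TAGLN at 105 to 400.1, SMTN at 8.81 to 11.9 and CNN1 at 2.55 to 4.39. The 6 smooth muscle markers with a row, which also include DES, summed to 2907 to 2959 in NC24h and 4051 to 4483 in NC36h. The leukocyte markers summed to 4.50 to 5.72 FPKM in NC24h and 1.78 to 3.08 in NC36h, the endothelial markers to at most 1.67 and the adipocyte markers to at most 0.826. The epithelial markers summed to 0.150 to 0.640 and 2.35 to 4.43, almost all of it CDH1 in NC36h. The part of these markers in the changes of the members was not tested.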

How the data were processed

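Total RNA of 6 libraries of PSCs was sequenced as paired-end reads. The authors mapped these to the pig genome (Sscrofa11.1), used HTSeq for counting and deposited the FPKM of every gene in each library, without pooling. The study's methods name HISAT2 and StringTie, the submitters' processing notes TopHat2 and Cufflinks. Strandedness, the handling of shared reads and the annotation release are not given in the sources used here, so reads of overlapping or near-identical genes could not be told apart. The labels' extraction text names another tissue, and the muscle markers were therefore checked.

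The model was limma 3.58.1 under R 4.3.3 on log2(FPKM + 1), with a trended prior and two-sided tests, for the 14060 genes whose mean FPKM reached 1 and with Benjamini-Hochberg adjustment over all of them. Changes on this scale understate those of low genes. The fragments behind each value were recovered from the steps between a gene's values, and all 19543 genes with fragments in 3 or more libraries came out whole (tolerance at most 0.02). Both steps were checked on data with known answers. The table held 99.2% of the totals the values imply, and 1 fragment of a 1 kb gene was worth 0.0457 to 0.0611 FPKM.

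The members and gene lists were chosen with earlier results of these data known, and the lists come from textbook knowledge. At most 4 genes per list were named by the smallest limma p, beside those under the FPKM minimum, except where stated. List genes without a paired symbol were not analysed here. One gene of a list is not reported here and was left out of its counts. Gene positions were taken from RefSeq (Sscrofa11.1) by symbol. The sequence comparisons foreseen in the design were not made. The alternatives were median-ratio scaling, quantile normalization, a pseudocount of 0.1, an FPKM minimum of 5 or none, a block for the replicate number, the removal of 1 library at a time, and limma voom on the recovered fragments.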

Additional observations from a re-analysis of the deposited data

How the results depend on the processing

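The rise of MEF2C passed the threshold in all 13 alternatives, with log2 changes of 1.09 to 1.56. Median-ratio scaling turned MEF2A to 0.08 and HDAC4 to 0.04, brought HDAC5 past the threshold at 0.31 and left HDAC7 short of it at -0.22. Quantile normalization gave 0.02 for HDAC4 and -0.23 for HDAC7, and HDAC7 also missed the threshold without a filter (-0.38) and with voom (-0.42). Without one library each, the log2 change ranged from 0.21 to 0.31 for SRF, -0.48 to -0.28 for HDAC7, -0.34 to -0.11 for HDAC9 and -0.04 to 0.17 for MEF2D, where the negative value was that without NC24h replicate 6. The cause was not tested, beyond the shift of all genes that scaling removes.

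Over all genes the number past the threshold (7156) was 6503 with median-ratio scaling, where 51.8% were higher against 32.4% on the deposited values, and 4881 to 7268 without one library each. Whether the numbers 4, 5 and 6 pair the samples is not given in the sources used here. The deviations of same-numbered libraries from their group means correlated at 0.15, -0.02 and 0.18 across genes. With 3 libraries per group these values cannot decide it. With the replicate block 7034 genes were called, and the log2 changes of MEF2C (1.37), SRF (0.26) and HDAC7 (-0.38) remained called. The block ended the calls of EP300 (adjusted p = 0.0587), NCOA2 (0.0528) and HDAC6 (0.0941) and brought LMOD2 past the threshold (0.0447).

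Median-ratio scaling gave 2 higher and 0 lower MEF2 coactivators and kinases, 3 lower HDAC kinases, 2 higher calcineurin genes, 1 higher corepressor gene and 0 lower other histone deacetylases. Quantile normalization gave 0 lower MEF2 coactivators, 4 lower HDAC kinases and 1 higher striated muscle target of SRF. Without one library each, the calls ranged from 0 to 2 for lower MEF2 coactivators, 0 to 1 for higher calcineurin genes, 0 to 2 for higher and 1 to 2 for lower other histone deacetylases, 5 to 9 for MEF2 targets, 3 to 7 for lower actin cytoskeleton targets, 0 to 4 for immediate early targets and 1 to 3 for striated muscle targets. The counts of MEF2 and immediate early targets include MYOZ1, EGR2 and EGR3 where these passed the FPKM minimum. Where limma gave 0, between 0 and 2 genes had an unadjusted p under 0.05, and voom called 2 lower MEF2 coactivators, 1 higher calcineurin gene, 2 higher and 1 lower other histone deacetylases and 2 immediate early genes. With 155 to 202 fragments per library, HDAC7 is the member that depth limits most.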
